A study of Mus musculus with 16 samples.

Results

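The genes described here are 38 genes of the interferon response and of antigen presentation by class I molecules. They were taken by gene name from a list, out of 45706 genes counted in mouse quadriceps, and all 38 were found and passed the filter on low counts. The tissue came from mice whose Nampt gene was knocked out in skeletal muscle alone (KO, 8 libraries) and from wild-type mice (WT, 8 libraries). Nampt encodes the enzyme that recycles nicotinamide for NAD synthesis, and the study's title concerns NAD depletion and muscle ageing. The labels give no age, sex, litter, Cre driver or floxed allele. They name separate samples without saying that each is a different animal, so the p-values cover the spread among samples, which may be technical. The RNA came from whole muscle, so fewer cells of a type and less RNA per cell cannot be told apart in any result given here.

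Interferons are cytokines that cells release on sensing viral or misplaced nucleic acid. Type I interferons activate a complex of STAT proteins with IRF9, which binds a promoter element called the ISRE, and type II interferon activates STAT dimers that bind an element called GAS. The induced genes encode nucleic acid sensors, antiviral effectors, GTPases and the machinery that loads peptides on class I molecules for display to T cells. In muscle, high class I display and interferon-induced transcripts are known features of inflammatory myopathy, whereas healthy fibres show little class I protein. The members lie on 15 chromosomes, several in families of neighbours: the 4 IFIT genes between 34550694 and 34650009 of chromosome 19 (GRCm38), the 4 OAS genes on chromosome 5, the 3 GBP genes on chromosome 3, and H2-D1, H2-K1 and Tap1 on chromosome 17.

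Promoter sequence shows how closely the members are tied to these elements. RefSeq promoter windows (build GRCm38.p6, from 250 bases before to 50 bases after the transcript start) were found for 30 of the 38 genes. Dhx58, Zbp1, Oas2, Usp18, Rtp4, Ifi27, Mx2 and Iigp1 had no window in the table used. An ISRE-like run is GAAA and GAAA with any 2 bases between them, or TTTC and TTTC on the other strand. It was present in a window of 16 of the 30 genes (53.3%), against 1079 of 27025 genes (3.99%). A gene with more than 1 window was counted once. At least 2 such runs stood in the windows of 8 members (26.7%), against 72 genes (0.266%). A GAS-like run is TTCNNNGAA, which reads the same on both strands. It was present in a window of 8 of the 30 genes (26.7%), against 2582 genes (9.55%). These are matches of letters, not measured binding. For 10 genes no window held either run: H2-D1, H2-K1, Tap1, Irf7, Irf9, Oasl1, Oasl2, Trim25, Xaf1 and Ifi44.

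The stretches below are shown because they carry the runs of genes described later. Isg15 (chr4:156200863-156200908, minus strand) had 3 overlapping ISRE-like runs, and Ifit1 (chr19:34640773-34640825, plus strand) had a pair. Ifit3 (chr19:34583361-34583428, plus strand) and Ifit3b (chr19:34607757-34607824, plus strand) are neighbouring copies with the same 68 bases around their pair of runs. Rsad2 (chr12:26456551-26456584, minus strand) and B2m (chr2:122147536-122147569, plus strand) had a single ISRE-like run. Igtp (chr11:58199499-58199543, plus strand) had a GAS-like run followed by an ISRE-like run, and Irf1 (chr11:53769912-53769944, plus strand) had a GAS-like run and no ISRE-like run. Each is written 5′ to 3′ on the gene's own strand, with capitals marking the matched letters.
Isg15: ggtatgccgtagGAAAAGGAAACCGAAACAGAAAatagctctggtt
Ifit1: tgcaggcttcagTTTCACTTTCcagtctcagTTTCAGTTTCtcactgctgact
Ifit3: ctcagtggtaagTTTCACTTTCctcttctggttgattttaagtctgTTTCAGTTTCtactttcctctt
Ifit3b: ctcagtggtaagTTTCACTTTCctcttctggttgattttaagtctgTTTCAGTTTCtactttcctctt
Rsad2: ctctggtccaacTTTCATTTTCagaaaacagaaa
B2m: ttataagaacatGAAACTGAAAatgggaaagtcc
Igtp: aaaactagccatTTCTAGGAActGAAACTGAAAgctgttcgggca
Irf1: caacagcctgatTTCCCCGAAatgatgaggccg

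**Figure D1:**
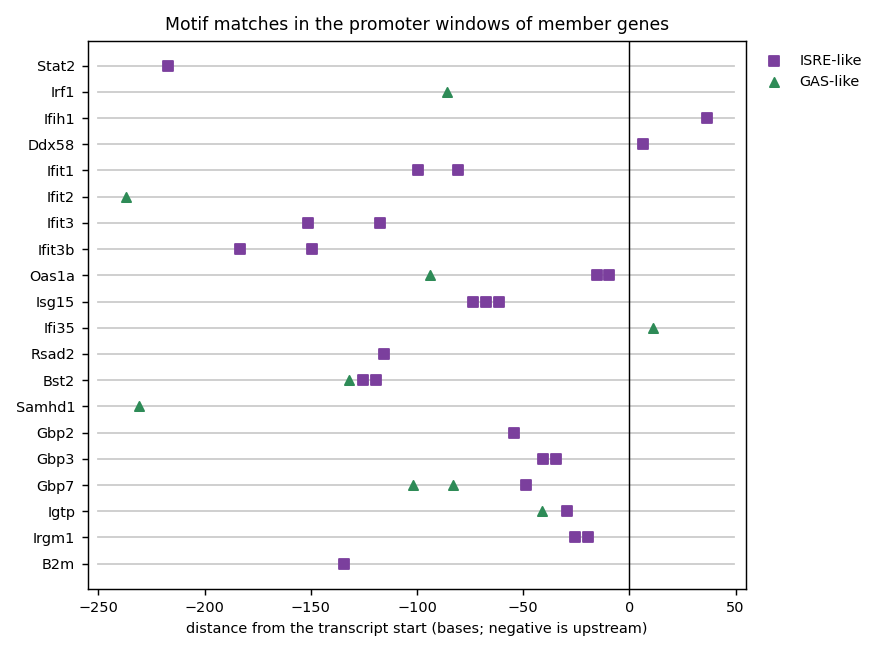
Positions of ISRE-like runs (squares) and GAS-like runs (triangles) in the promoter windows of the members that held either; the horizontal axis is the distance in bases from the transcript start. The ISRE-like runs of Isg15 are centred at -73.5, -67.5 and -61.5 bases, and those of Ifih1 and Ddx58 lie downstream of the start.

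Totals per library were 16065394 to 37935479 estimated counts in KO and 20133736 to 51881258 in WT, with RNA integrity numbers of 8.4 to 8.8 in KO and 8.2 to 8.7 in WT. Levels are given in CPM, each count scaled to a common library size. Nampt itself ranged over 60.4 to 88.7 CPM in KO libraries and 125.5 to 161.1 CPM in WT libraries (log2 fold change -0.95, standard error 0.07, adjusted p = 9.68e-07), lower in every library labelled KO. The tissue was muscle by its markers: 10 fibre genes had a summed level of 142602 to 170065 CPM in KO, against 142044 to 176983 CPM in WT. Marker sums of macrophages were 103 to 235 CPM in KO and 105 to 240 CPM in WT, and those of endothelium were 382 to 445 CPM in KO and 350 to 406 CPM in WT. The 10 T and NK cell markers together reached 0.789 to 2.51 CPM in KO and 0.482 to 0.952 CPM in WT, and 0 of the 10 passed the filter on low counts. None of the 10 marker lists, of blood, progenitors, fibres and RNA without a poly(A) tail among others, held a gene called by edgeR. Genes that did not pass the filter could not be called, which holds for all T and NK and all B and plasma cell markers. Of 6 dendritic cell markers, 2 were tested. At an unadjusted p under 0.05 (edgeR) were 3 of 10 endothelial genes. So were 3 of 11 tested genes on the list of RNAs mostly without a poly(A) tail, namely Rn7sk, Rmrp and Snhg20. The share over all tested genes was 9.57%, and no gene of the other lists was at that p.

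No member of the set passed the test in knockout muscle. At an adjusted p under 0.05 (edgeR quasi-likelihood test, Benjamini-Hochberg over all 13792 genes tested), 0 of the 38 members were called, against 6 genes in all (0.0435%). At an unadjusted p under 0.05 the count was also 0 of 38, against 9.57% of all tested genes, and the lowest p was 0.0669, for Irf1. At an unadjusted p under 0.1 there were 5 members (13.2%), against 16.2% of all genes: Irf1, Iigp1, Igtp and Tap1 with higher means in KO, and Ifit3b with a lower one. limma-voom called 0 members, with 1 at an unadjusted p under 0.05, and 5 genes in all (0.0363%). DESeq2 called 0 of the 4 members to which it gave an adjusted p, with 0 of 38 at an unadjusted p under 0.05, and 97 of 5527 genes in all (1.76%).

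The CPM ranges of the genotypes overlapped for all 38 members, whereas 0.123% of all tested genes had ranges that did not overlap. Log2 fold changes of KO over WT were above 0 in 29 of the 38 (76.3%), against 51.8% of all tested genes, with a median of 0.10 (0.06 without library KO 2) against 0.00 over all genes. Members that share a pathway vary together, as described below, so they are not 38 separate observations of a direction. Every 95% interval contained 0. For 27 members (71.1%) the whole interval stayed within a 1.5-fold change both up and down, against 86.2% of all tested genes. The widest interval belonged to Zbp1, at -0.62 to 1.15 on the log2 scale.

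**Figure D2:**
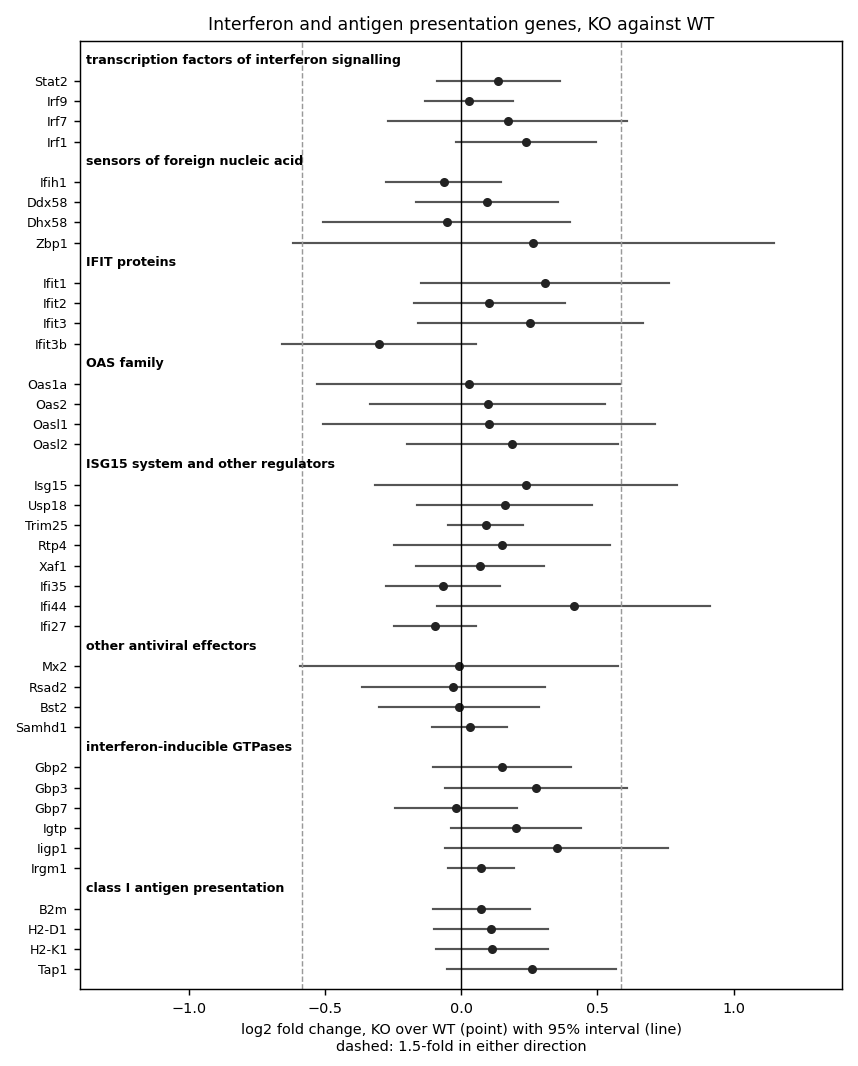
Log2 fold change of KO over WT (points) with 95% interval (lines) for the 38 members, ordered by role; dashed lines mark a 1.5-fold change in either direction. All intervals cross 0, and the widest ones belong to genes of low level such as Zbp1 and Isg15.

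The transcription factors lay slightly above WT on average. STAT2 and IRF9 are parts of the complex that answers type I interferon, IRF7 amplifies interferon production, and IRF1 drives many genes of type II interferon. All 4 had log2 fold changes above 0, from 0.03 to 0.24 with a median of 0.15, and 0 of them passed the test. Irf1 had 6.36, 7.86 and 10.7 CPM (lowest, median and highest library) in KO, against 4.69, 7.04 and 8.13 CPM in WT. On the log2 scale this was 0.24 above WT (standard error 0.12, adjusted p = 0.561). The 3 highest libraries of Irf1 were KO and the lowest was WT 1, but 5 of 8 KO libraries lay above the WT median, so the genotypes were mixed in between. Stat2 had 6.05, 8.27 and 10.3 CPM in KO and 5.22, 7.74 and 8.80 CPM in WT (log2 fold change 0.14, standard error 0.11, adjusted p = 0.742). Irf9 and Irf7 lay at 0.03 and 0.17 on the log2 scale, both with intervals across 0, and Irf7 at 0.06 without KO 2 and 0.31 without WT 4.

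The sensors did not lean to either side. IFIH1 (MDA5) and DDX58 (RIG-I) detect double-stranded RNA in the cytoplasm, DHX58 tunes them, and ZBP1 binds nucleic acid in the Z form. Their log2 fold changes ran from -0.07 to 0.26, 2 above 0 and 2 below, and 0 of 4 passed the test. Ifih1 had 3.72, 5.19 and 6.15 CPM in KO and 4.37, 5.33 and 6.74 CPM in WT (log2 fold change -0.07, standard error 0.10, adjusted p = 0.890). Ddx58 had 4.28, 5.26 and 7.13 CPM in KO and 3.43, 5.04 and 6.32 CPM in WT (0.09, standard error 0.12, adjusted p = 0.861). For both genes the KO and WT ranges overlapped over most of their length. Dhx58 and Zbp1 averaged near 1 CPM, and the highest library of Zbp1 was 8.79 times its lowest, the widest range of any member. Without KO 2 the log2 fold change of Zbp1 was 0.03 and without WT 4 it was 0.63, and that of Ifih1 was -0.01 without KO 1.

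The IFIT genes encode proteins that bind viral RNA and block its translation. The values of Ifit3 and Ifit3b depended on how reads were split between these 2 near-identical copies. Ifit3 had 2.36, 4.90 and 5.54 CPM in KO and 2.05, 3.78 and 5.32 CPM in WT (log2 fold change 0.25, standard error 0.20, adjusted p = 0.737). Ifit3b had 2.68, 5.54 and 6.61 CPM in KO and 4.43, 6.25 and 9.26 CPM in WT (-0.30, standard error 0.17, adjusted p = 0.605). The copies therefore had opposite signs, and neither passed the test. Of all stretches of 52 bases, the read length, 50.4% of those in Ifit3 exons also occur in Ifit3b, and 43.8% of those in Ifit3b exons occur in Ifit3. The promoter windows of the copies, whose runs are printed above, were identical at 259 of 274 aligned bases (94.5%). The estimated count of Ifit3 was not a whole number in any of the 16 libraries, while the sum of both copies was whole in all 16 (within 0.002 of a count).

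The share of the summed count that was assigned to Ifit3b was 33.3%, 55.8% and 69.0% in KO (lowest, median and highest) and 57.9%, 63.5% and 74.0% in WT. Libraries KO 2 (33.3%) and KO 4 (38.7%) had the lowest shares, and 6 of the 8 KO libraries lay between 52.6% and 69.0%. With the copies summed, a choice made after their values were seen, the level was 6.94, 9.54 and 11.6 CPM in KO and 7.40, 10.3 and 13.8 CPM in WT. The summed log2 fold change was -0.08 (standard error 0.13, adjusted p = 0.904). The sum thus had the sign of Ifit3b, not that of Ifit3. Ifit1 and Ifit2, on the same stretch of chromosome 19, had log2 fold changes of 0.31 and 0.10.

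The OAS genes encode enzymes and related proteins that answer double-stranded RNA, the enzymes by making a messenger that activates RNase L. All 4 members had log2 fold changes above 0, from 0.03 to 0.19, and 0 of 4 passed the test. Oasl2 had 2.73, 4.35 and 7.56 CPM in KO and 2.77, 3.93 and 5.86 CPM in WT (log2 fold change 0.19, standard error 0.18, adjusted p = 0.802). Oas2 had 2.29, 2.95 and 5.91 CPM in KO and 2.21, 3.34 and 4.28 CPM in WT (0.10, standard error 0.21, adjusted p = 0.926). In both genes the highest library of all 16 was KO 2, and the KO median of Oas2 was below its WT median. Without KO 2 the log2 fold changes were 0.06 for Oasl2 and -0.03 for Oas2. Of Oas1a's exon stretches, 56.4% also occur in Oas1g, so its own count is uncertain; with the pair summed, the log2 fold change was 0.06 (standard error 0.29, adjusted p = 0.979).

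The group around ISG15, a ubiquitin-like modifier, held 6 members above 0 and 2 below, with log2 fold changes from -0.10 to 0.41, and 0 of 8 passed the test. TRIM25 is a ubiquitin ligase that activates RIG-I, and USP18 removes ISG15 and damps the interferon receptor. Trim25 had 12.3, 14.2 and 15.1 CPM in KO and 11.1, 13.0 and 15.4 CPM in WT (log2 fold change 0.09, standard error 0.07, adjusted p = 0.716). Ifi27, an interferon-induced membrane protein gene, had 11.3, 13.9 and 15.4 CPM in KO and 12.6, 14.2 and 17.0 CPM in WT (-0.10, standard error 0.07, adjusted p = 0.716). These most abundant genes of the group thus had opposite signs and narrow intervals, inside a 1.5-fold change. Isg15 itself had 0.426, 0.867 and 2.44 CPM in KO and 0.602, 0.796 and 1.102 CPM in WT. The fitted log2 fold change of Isg15 was 0.24 (standard error 0.26, adjusted p = 0.829) with all libraries and -0.05 without KO 2, the only KO library above the highest WT library.

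Among the other antiviral effectors the median log2 fold change was -0.01, with 1 of 4 above 0 and 0 of 4 past the test. SAMHD1 depletes deoxynucleotides, viperin (Rsad2) makes a chain-terminating nucleotide, and tetherin (Bst2) holds budding virus at the cell surface. Samhd1 had 25.04, 28.6 and 34.4 CPM in KO and 26.6, 27.9 and 32.8 CPM in WT (log2 fold change 0.03, standard error 0.07, adjusted p = 0.927). Rsad2 had 3.29, 4.14 and 5.30 CPM in KO and 3.13, 3.84 and 6.82 CPM in WT (-0.03, standard error 0.16, adjusted p = 0.980). The Samhd1 ranges nearly coincided, and the highest Rsad2 value was in WT 7, which was also highest for Ifih1, Bst2 and Mx2. Mx2, annotated as a polymorphic pseudogene, had 3 to 29 counts per library and the lowest level of any member.

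Some of the interferon-inducible GTPases attack vacuoles that hold microbes. The group had 5 of 6 members above 0 and a median log2 fold change of 0.17, with 0 of 6 past the test. Igtp (IRGM3) had 11.6, 14.0 and 18.4 CPM in KO and 9.51, 12.7 and 16.6 CPM in WT (log2 fold change 0.20, standard error 0.11, adjusted p = 0.611). Gbp7 had 11.3, 12.4 and 15.9 CPM in KO and 9.39, 12.7 and 16.7 CPM in WT (-0.02, standard error 0.11, adjusted p = 0.980). For Igtp 6 of 8 KO libraries exceeded the WT median, and for Gbp7 3 of 8 did. Iigp1 had the largest value of the group, 0.35 with an interval from -0.06 to 0.76, and Irgm1 the smallest spread of any member, its highest library being 1.35 times its lowest. Reads can be shared here too: 11.4% of the exon stretches of Igtp occur in Irgm2, and 10.4% of those of Gbp7 in the gene model Gm43802.

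Among the antigen presentation genes, B2m, H2-D1 and H2-K1 were the most abundant members, and Tap1 averaged 4.25 CPM. B2M is the light chain of class I molecules, H2-D1 and H2-K1 encode classical heavy chains, and TAP1 is a subunit of the peptide transporter. H2-D1 (chromosome 17, 35262730 to 35267499 of GRCm38, plus strand) had 64.7, 85.5 and 105.7 CPM in KO and 63.5, 80.2 and 91.8 CPM in WT. On the log2 scale KO was 0.11 above WT (standard error 0.10, adjusted p = 0.776). B2m (chromosome 2, 122147686 to 122153083, plus strand) had 58.2, 72.8 and 82.9 CPM in KO and 56.7, 67.9 and 79.7 CPM in WT (0.07, standard error 0.08, adjusted p = 0.835). H2-K1 had a log2 fold change of 0.11 and Tap1 one of 0.26, so all 4 lay above 0, with a median of 0.11, and 0 of 4 passed the test. All 4 intervals lay inside a 1.5-fold change, between -0.10 and 0.57. Of the exon stretches of H2-D1, 11.5% occur in other class I genes, and of those of H2-K1, 8.81%.

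Per kilobase of exon, the level of B2m was 80.5 CPM, of H2-D1 31.9 and of H2-K1 20.7, ahead of Ifi27 at 9.63 and Igtp at 6.76. Most effector genes stood far below them, down to 0.132 for Ifi44 and 0.120 for Mx2. Of the 38 members, 9 averaged over 10 CPM and 5 averaged under 1 CPM.

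**Figure D3:**
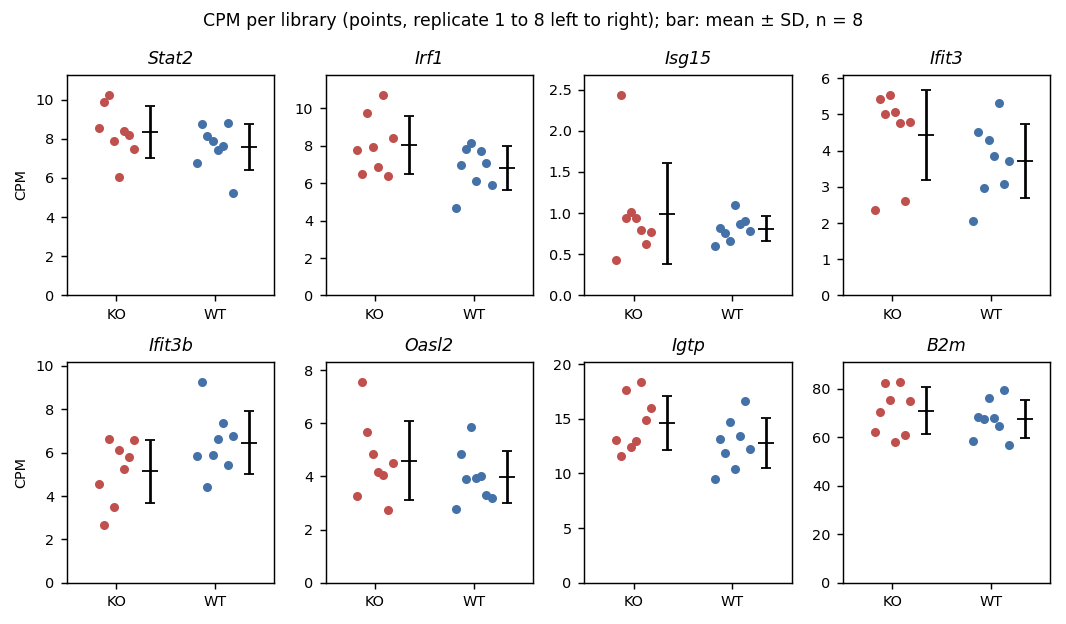
CPM of 8 members in every library (points, KO left and WT right, replicates 1 to 8 from left to right within a genotype), with mean ± SD (n = 8). The genotypes overlap in every panel, and the single high Isg15 value is KO 2 at 2.44 CPM.

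Variation between libraries of one genotype was larger than the difference between the genotypes. The mean deviation of the members from their own means over 16 libraries, on the log2(CPM + 0.5) scale, ran from -0.18 to 0.29 in KO (SD 0.185, n = 8) and from -0.32 to 0.19 in WT (SD 0.175, n = 8). The genotype means of this deviation were 0.05 in KO and -0.05 in WT, less apart than 1 SD of either. The highest library was KO for 26 members and WT for 12. KO 3 was above the mean for 36 of 38 members, whereas WT 1 and WT 8 were each below it for 34 and KO 7 for 32.

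Different libraries led different members. KO 2 was the highest library for 11: Irf7, Ddx58, Zbp1, Ifit1, Oas1a, Oas2, Oasl1, Oasl2, Isg15, Rtp4 and Ifi44, and it was the lowest for Ifit3b. KO 6 was the highest for 10: Irf1, Usp18, Xaf1, Samhd1, Gbp3, Igtp, Iigp1, B2m, H2-K1 and Tap1. KO 2 and KO 6 had T and NK marker sums of 0.914 and 2.05 CPM and macrophage marker sums of 194 and 144 CPM. The T and NK sum of KO 6 was above every WT library (0.482 to 0.952 CPM), and that of KO 3, at 2.51 CPM, was the highest of all. The part of these cells in the member levels was not tested.

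**Figure D4:**
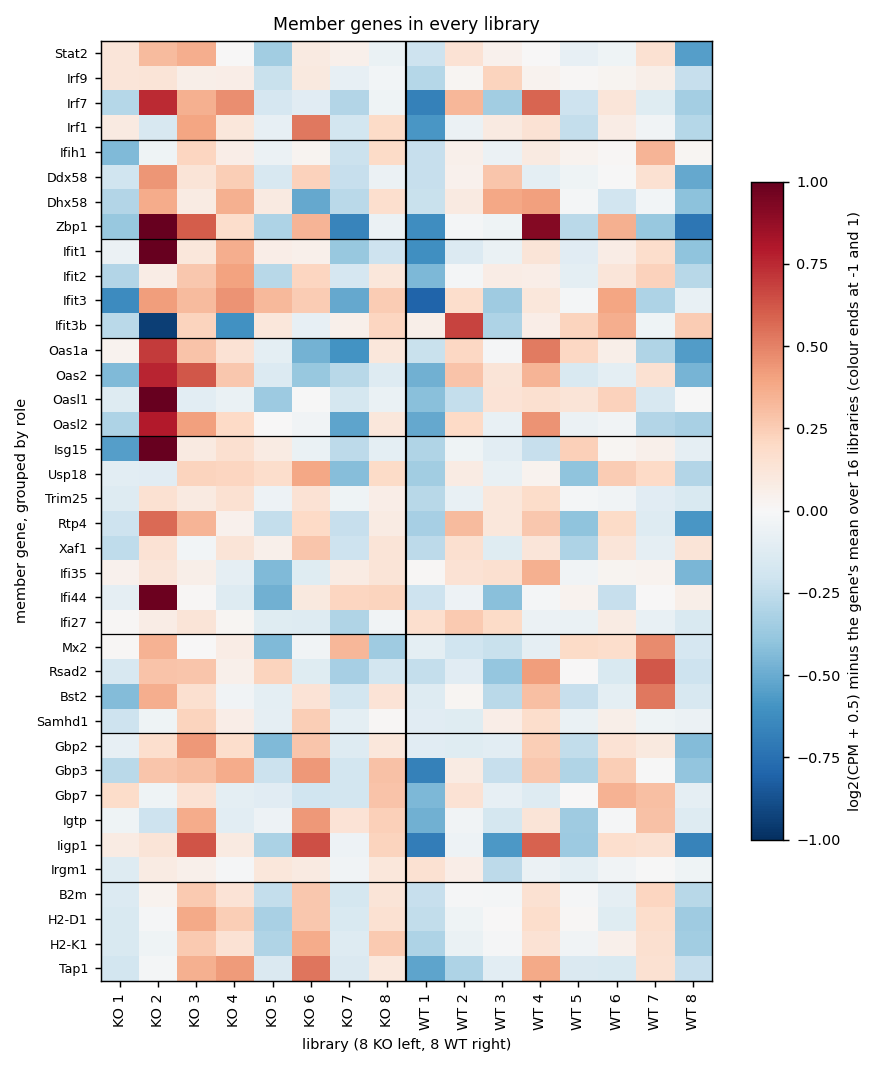
Deviation of each member from its own mean over 16 libraries, as log2(CPM + 0.5), with KO libraries left and WT libraries right of the line and colours ending at -1 and 1. The median deviation of the OAS group is 0.78 in KO 2, and that of class I is 0.31 in KO 3 and 0.32 in KO 6, while WT 1 and WT 8 are low for most members.

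The members varied together across libraries. After centring within genotype, the 703 pairs of members had a median Pearson r of 0.42 over 16 libraries, and 279 pairs (39.7%) exceeded 0.5. Pairs of a member with any other tested gene had a median of -0.00, and 5.97% exceeded 0.5. These are descriptions, since all pairs share the same libraries and their depth. Class I genes were the tightest group (median r 0.90) and the OAS genes came next (0.70). Ifit3b (median r -0.17) and Irgm1 (0.03) had the lowest median r with the other members. For Ifit3b, Irgm1 and Gbp7 (median r 0.25), 0 pairs exceeded 0.5, while Mx2 had 2 such pairs and Ifi27 and Ifi44 had 3 each. The Ifit3b values depend on how reads were split with Ifit3, as described above, and the part of that split in its low r was not tested.

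Correlations were computed for 9 gene pairs that join a factor with a target, chains of one complex, or a member with a marker of another cell type. The pairs were chosen with earlier results of these data known, so their p-values are descriptive. Of the 9 pairs, 7 were correlated over the 16 libraries at an adjusted p under 0.05 (permutation tests of 100000 resamples, two-sided, Benjamini-Hochberg over 9 pairs). Members vary together in general, as given above, so such a p does not set a pair of members apart from other member pairs. B2m and H2-K1, chains of one complex, had r = 0.95 and rho = 0.92, each with a permutation p of 2e-05 (adjusted 9e-05), the smallest these resamples can give. Irf7 and Oasl2 had r = 0.91 and rho = 0.91 with the same p, and both relations were past the threshold by r within KO (r = 0.96 for B2m and 0.92 for Irf7) and within WT (0.93 and 0.92). By rho both passed within KO and missed it within WT (adjusted exact permutation p = 0.0551 for B2m and 0.0503 for Irf7). Without the 2 libraries farthest from the median of the first gene, r was 0.93 and 0.84. Irf7 and Ifit3 had r = 0.74 and rho = 0.79 (permutation p = 0.0004 and 0.0005, adjusted 0.0009 and 0.0015). Within KO their r was 0.69 and within WT 0.78, both past the threshold, and r was 0.79 without the 2 farthest libraries. By rho the relation missed the threshold within KO and within WT (adjusted exact permutation p = 0.0628 and 0.0503). The Ifit3 values depend on how reads were split with Ifit3b, and the part of that split in the relation was not tested.

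Irf1 was correlated over all libraries with both genes tested of those it is known to drive. With Tap1 it had r = 0.81 and rho = 0.74 (permutation p = 6e-05 and 0.0018, adjusted 0.00018 and 0.00324), with 0.81 within KO, 0.74 within WT and 0.65 without the 2 farthest libraries. With Gbp2 it had r = 0.67 and rho = 0.78 (permutation p = 0.0044 and 0.00068, adjusted 0.0066 and 0.00153), with 0.67 within KO, 0.60 within WT and 0.75 without the 2 farthest libraries. Stat2 and Irf9 had r = 0.76 and rho = 0.70 (permutation p = 0.0013 and 0.00346, adjusted 0.00234 and 0.00519), with 0.80 within KO, 0.75 within WT and 0.58 without the 2 farthest. Of these relations, Stat2 with Irf9 and Irf1 with Gbp2 missed the adjusted threshold of 0.05 for r within each genotype, and Irf1 with Tap1 missed it within KO (exact permutation tests, n = 8). By rho each of these relations missed it within KO and within WT (adjusted exact permutation p = 0.0503 for each within WT).

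The interferon regulators Irf7 and Irf1 were not correlated past the threshold over all libraries. Their values were r = 0.40 and rho = 0.49 (permutation p = 0.123 and 0.0539, adjusted 0.138 and 0.0606). Within KO r was -0.04 and within WT 0.74 (exact permutation p = 0.938 and 0.0251, adjusted 0.938 and 0.0377), a difference that was not tested. Without KO 2 and WT 4, the libraries farthest from the Irf7 median, r was 0.58 (adjusted p = 0.0329, permutation). KO 2 was the highest of all 16 libraries for Irf7, at 5.97 CPM, and the second lowest KO library for Irf1, at 6.46 CPM.

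Levels of members were also set beside genes of other cells. Irf7 and Adgre1, which encodes the macrophage marker F4/80, had r = 0.61 and rho = 0.56 (permutation p = 0.0131 and 0.0249, adjusted 0.0168 and 0.0320), with 0.59 within KO and 0.61 within WT, neither past the threshold, and 0.62 without the 2 farthest libraries. B2m and the endothelial gene Pecam1 had r = 0.13 and rho = 0.03 over all libraries (permutation p = 0.638 and 0.907, adjusted 0.638 and 0.907). Within KO their r was -0.71 (exact permutation p = 0.0436, adjusted 0.0654) and within WT 0.79 (p = 0.0210, adjusted 0.0377). The difference between the genotypes was not tested.

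**Figure D5:**
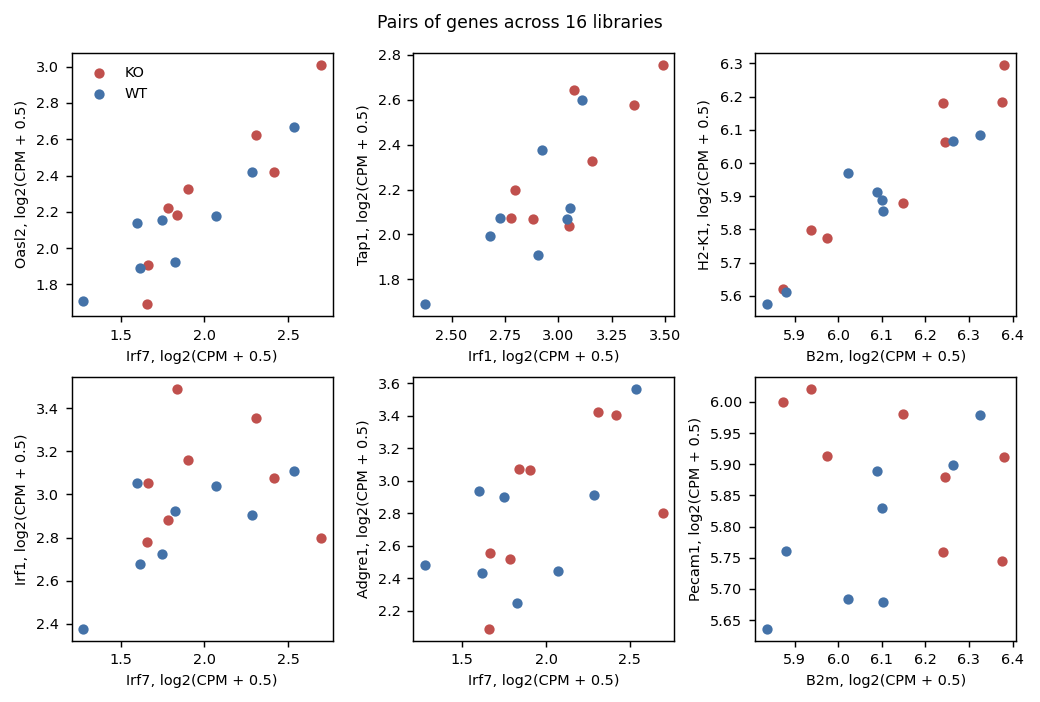
Levels of 6 gene pairs in 16 libraries, each axis log2(CPM + 0.5), with KO libraries in red and WT libraries in blue. B2m with H2-K1 (r = 0.95) and Irf7 with Oasl2 (r = 0.91) form tight lines, while Irf7 with Irf1 (r = 0.40) and B2m with Pecam1 (r = 0.13) do not.

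The rest of the pathway was examined through 6 further gene lists. Of 10 interferon ligand genes, 9 had 0 counts in all libraries, and the only count was 1 read of Ifng in KO 4, so ligand transcripts were not detectable at this depth. All 14 receptor and JAK-STAT genes were tested and 0 were called by edgeR, with 8 at an unadjusted p under 0.05 (9.57% of all tested genes were) and 11 above 0 (51.8% of all were). Jak1, a kinase of both receptor types, had 142, 153 and 171 CPM in KO and 144, 169 and 203 CPM in WT (log2 fold change -0.15, standard error 0.06, adjusted p = 0.433). Ifngr2, a chain of the type II receptor, lay at -0.02 (adjusted p = 0.977). Of 15 adaptors, kinases and other IRF genes, 0 were called, 1 was at an unadjusted p under 0.05, and the median log2 fold change was -0.01. Mavs, the mitochondrial adaptor of RIG-I and MDA5, lay at -0.03 and Irf2 at -0.02.

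A list of 50 other interferon-stimulated genes had 48 in the table and 39 tested, of which 35 were above 0 with a median log2 fold change of 0.14. Of these, 0 were called and 8 were at an unadjusted p under 0.05. Over all tested genes the shares were 51.8% above 0 and 9.57% at that p. Slfn5, a member of the Schlafen family, had 23.1, 25.5 and 30.6 CPM in KO and 18.6, 22.2 and 26.3 CPM in WT (0.18, standard error 0.07, adjusted p = 0.392). Irgm2, an interferon-inducible GTPase gene, lay at 0.24 (adjusted p = 0.352). Of 20 other class I genes, all tested, 0 were called, 1 was at an unadjusted p under 0.05, and the median was 0.10. The chaperones Calr and Canx lay at -0.01 and 0.04.

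Antigen presentation by class II molecules, which display peptides taken up by macrophages, dendritic cells and B cells, stood further from 0 than class I. All 8 tested genes of 9 listed were above 0, with a median log2 fold change of 0.56, and 6 were at an unadjusted p under 0.05, while edgeR and limma-voom called 0. Over all tested genes 51.8% were above 0 and 9.57% at that p. Cd74, the invariant chain, had 59.1, 84.0 and 123 CPM in KO and 49.03, 61.9 and 78.6 CPM in WT (log2 fold change 0.54, standard error 0.15, adjusted p = 0.222). H2-Ab1, which encodes a class II beta chain, had 20.04, 29.4 and 45.4 CPM in KO and 16.2, 20.7 and 27.4 CPM in WT (0.57, standard error 0.16, adjusted p = 0.228). In both genes the highest libraries were KO, and the ranges overlapped. DESeq2 called 4 of the genes, Cd74 (adjusted p = 0.0277), H2-Aa (0.0135), H2-Ab1 (0.0319) and H2-Eb1 (0.0117), against 1.76% of the genes to which it gave an adjusted p. These 4 were the only class II genes to which it gave an adjusted p. Over all settings run, the adjusted p of Cd74 ranged from 0.0277 to 0.374 and that of H2-Ab1 from 0.0319 to 0.406.

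Markers of cells that carry class II molecules are given beside that result. Of 12 macrophage markers, 10 were above 0 with a median log2 fold change of 0.06, and 0 were called or at an unadjusted p under 0.05. The 6 dendritic cell markers summed to 1.71, 2.79 and 4.17 CPM in KO (lowest, median and highest library) and 1.15, 2.25 and 4.21 CPM in WT. All were of low level, and 2 of them passed the filter. Mean CPM in KO and WT was 1.07 and 0.787 for Itgax, 0.353 and 0.202 for Flt3, 0.294 and 0.164 for Clec9a. It was 0.271 and 0.221 for Batf3 and 0.207 and 0.111 for Xcr1, while Siglech was lower in KO (0.654 and 0.767). The 5 B and plasma cell markers summed to 0.549 to 1.35 CPM in KO and 0.362 to 1.12 CPM in WT, and 0 passed it. KO 6 had the highest class II sum (272 CPM) and the highest dendritic sum of the KO libraries. The part of these cells in the class II levels was not tested.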

How the data were processed

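Polyadenylated RNA of 16 quadriceps libraries was sequenced in pairs of 52 bases, per the labels' protocols, which call the libraries ssRNA-seq. The submitters' processing notes name bcl2fastq 4.0.3, STAR, Salmon and the build GRCm38. For STAR and Salmon the version, annotation and counting strand are not given in the sources. Estimated counts per gene were deposited, with no scaling to depth by the authors. Of these, 11.1% held a fraction and were rounded to whole counts for the models.

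KO and WT were compared with edgeR 4.0.16 in R 4.3.3 (quasi-likelihood F test, TMM scaling, default low-count filter, no covariate). The filter left 13792 genes and removed 0.0705% of counts. A gene was called where its p, adjusted by Benjamini-Hochberg, was under 0.05. CPM used TMM-scaled library sizes, log values a pseudocount of 0.5, a standard error is the fold change over the root of its F statistic, and intervals are at 95%. Alternatives were DESeq2 1.42.0, limma-voom (limma 3.58.1), other scalings, no filter, a RIN covariate, a replicate block and libraries left out. The test was tested on simulated counts first.

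The members, gene lists, gene pairs and role groups were chosen with earlier results of these data known. In each of 8 role groups the 2 members of highest mean CPM are given in full, with any member at an unadjusted p under 0.05. Of other lists, the 2 genes of highest mean CPM and called genes are named, and the others were named after their values were seen. Coordinates, exon lengths and shared stretches come from GENCODE vM21, promoter windows from RefSeq. The number of table columns without a library was 0. Library pairs of a genotype differed by a chi-square per degree of freedom of at least 8.09, so all were kept as separate samples. Depth limits the members of low level: 34 of 38 had at least 10 counts in every library.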

Additional observations from a re-analysis of the deposited data

Results flagged for a closer look

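In 4 of the 76 groups checked (38 genes in each of 2 genotypes), the highest library lay apart from the other 7: its gap to the next library exceeded 0.526 of the group's whole range, Dixon's critical value for 8 samples. Chance marks about 1 group in 20. All 4 were in library KO 2. Ifit1 had 3.60 CPM there (59 counts, exact Poisson 95% interval 2.74 to 4.64), against 1.08 to 2.15 CPM in the other KO libraries. Oasl1 had 1.83 CPM (30 counts, 1.23 to 2.61), against 0.353 to 0.596 CPM. Isg15 had 2.44 CPM (40 counts, 1.74 to 3.32), against 0.426 to 1.02 CPM. Ifi44 had 2.01 CPM (33 counts, 1.38 to 2.83), against 0.411 to 0.985 CPM. The intervals cover counting error only. Without KO 2 the log2 fold changes were 0.12 for Ifit1, -0.22 for Oasl1, -0.05 for Isg15 and 0.20 for Ifi44, and 0 of the 4 were called with or without it.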

How the results depend on the processing

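The count of members called was 0 under the 8 other settings and with each of the 16 libraries left out in turn. DESeq2, however, gave an adjusted p to only 4 of the 38 members. Over these settings and the summed copies, the lowest adjusted p of any member was 0.354. The members' median log2 fold change was 0.06 to 0.15 with 1 library left out (lowest without KO 2) and 0.08 to 0.16 under the other settings, and that of the class I members was 0.07 to 0.16 with 1 library left out. Of 915 member values, 868 kept their sign, and 26 of 38 members kept it in all settings. Sign changes were -0.049 (limma-voom), -0.052 (RIN covariate) and -0.070 (without KO libraries 1, 3, 5 and 8, left out because an earlier analysis of these data singled them out for RNA without a poly(A) tail) for Oas1a, -0.0053 for Oas2 and -0.019 for Oasl1 (limma-voom), 0.31 for Mx2 and 0.047 for Bst2 without those 4 libraries, and -0.076 for Ifit3 summed with Ifit3b. With 1 library left out, values spanned 0 for Irf9 (-0.0094 to 0.073), Dhx58 (-0.14 to 0.053), Oas1a (-0.12 to 0.17), Oas2 (-0.026 to 0.17), Oasl1 (-0.22 to 0.18), Isg15 (-0.046 to 0.35), Mx2 (-0.15 to 0.19), Rsad2 (-0.096 to 0.10), Bst2 (-0.063 to 0.097), Samhd1 (-0.0052 to 0.063) and Gbp7 (-0.078 to 0.033). The cause of these sign changes was not tested. The 4 libraries left out had 19.98 to 34.4 CPM of Rn7sk, a short RNA without a poly(A) tail. The other KO libraries had 1.95 to 5.05 CPM of it and WT 1.12 to 15.8 CPM. Of Rmrp, on the same list, the 4 libraries had 2.90 to 5.43 CPM. The other KO libraries had 0.066 to 0.78 CPM of Rmrp and WT 0.099 to 1.78 CPM. Summed over the list of 14 RNAs mostly without such a tail, KO 3 (217 CPM) lay among the other KO libraries (203 to 225 CPM). The gene of highest mean in that sum was Hist1h1c, at 134 CPM.

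Over all tested genes, calls numbered 97 by DESeq2, 2 with RLE size factors, 3 without the low-count filter, 2 without the 4 KO libraries, and 2 to 8 with 1 library left out (2 or 3 without KO 1, 2, 3, 5 or 8 or WT 2, 3, 4, 5, 6 or 8), against 6 in the result reported. Class II calls were 4 by DESeq2 and 0 with any 1 library left out, with 5 to 7 genes at an unadjusted p under 0.05. With replicate number as a block, 2 genes were called in all and 0 members, and the log2 fold changes of Rsad2 and Bst2 were 0.0017 and 0.0023, above 0. Libraries of the same number had correlations of -0.11 to 0.25, only 3 of 8 over 0.1, and 2 of 8 KO libraries were closest to their own number. These values show no clear pairing by number but cannot exclude it, since a pairing of small effect could leave such correlations. Among gene relations, r within KO and within WT was 0.80 and 0.75 (Stat2 with Irf9), 0.67 and 0.60 (Irf1 with Gbp2), 0.59 and 0.61 (Irf7 with Adgre1), -0.039 and 0.74 (Irf7 with Irf1; 0.58 without the 2 farthest libraries) and -0.71 and 0.79 (B2m with Pecam1), and 0.81 within KO for Irf1 with Tap1. Groups of 8 libraries limit these values, and counts under 10 limit the lowest members.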

Other observations

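The feedback inhibitors of interferon and cytokine signalling were named after their values were seen. Socs1, a suppressor of JAK kinases induced by interferon, had 0.117, 1.53 and 8.73 CPM in KO (lowest, median and highest library) and 0.229, 0.724 and 1.605 CPM in WT. KO was 1.77 above WT on the log2 scale (standard error 0.57, adjusted p = 0.296 by edgeR), and the highest library was KO 7, in which 32 of 38 interferon and class I genes lay below their means. Socs3, a suppressor of signalling through STAT3, had 6.27, 13.1 and 28.4 CPM in KO and 3.49, 6.61 and 10.9 CPM in WT (0.96 on the log2 scale, standard error 0.29, adjusted p = 0.273). The highest library of Socs3 was KO 7 as well, so the top values of both genes come from the same library, and no fit without it is given for them. Neither gene was called, and the genotype ranges overlapped for both.

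Jak2, a kinase of the type II receptor, likewise chosen from its values, had 39.7, 47.4 and 55.96 CPM in KO and 53.3, 57.5 and 83.9 CPM in WT (-0.35 on the log2 scale, standard error 0.09, adjusted p = 0.192). The chemokine gene Cxcl9, induced by type II interferon and chosen the same way, lay 0.83 above WT on that scale (standard error 0.29, adjusted p = 0.347). It had 0.549, 0.926 and 2.60 CPM in KO and 0.562, 0.737 and 1.00 CPM in WT, with 9 to 80 counts per library. The ranges overlapped, and the highest library was KO 3. Cxcl10, on the same list, did not pass the filter and averaged 0.328 CPM in KO and 0.333 CPM in WT.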
